A study of Homo sapiens with 12 samples.

Results

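The proteasome subunit genes are the 43 genes whose symbols follow the pattern PSMA, PSMB, PSMC, PSMD or PSME with a number, out of 23500 genes listed. The proteasome is the protease that degrades proteins tagged with ubiquitin. Its 20S core is a barrel of PSMA subunits, which form the outer rings and the gate, and PSMB subunits, which form the inner rings and hold the protease sites. The regulatory particle, or 19S, caps the barrel. In it the PSMC subunits are ATPases that unfold the substrate, and most PSMD subunits bind and trim ubiquitin or hold the particle together. PSME proteins are other caps that open the barrel. The genes divide into 19 of the 20S core (8 PSMA and 11 PSMB), 20 of the regulatory particle (6 PSMC and 14 PSMD) and 4 PSME genes. In many cells the transcription factor NFE2L1 raises these genes together when proteasome activity is short.

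RNA was sequenced from HEK293T, a human embryonic kidney line, and from R1, a single clone of it. HEK293T does not grow on homocysteine, from which cells make methionine, without added methionine, whereas R1 was selected to grow on it. Both were kept for 12 h in methionine medium (+Met) or in medium with homocysteine in place of methionine (-Met+Hcy), with 3 libraries in each of 4 groups. The titles and library names of the labels give R1, while the cell line field of these libraries reads HEK293T. Nothing in the labels says that the 3 libraries of a group came from separate cultures, so p-values measure the spread between libraries, which may be technical. The total estimated count per library ran from 12664158 to 18771349. Levels below are a gene's share of a library's summed count, in CPM, whereas fold changes come from a model with TMM scaling and are on the log2 scale with their standard error (SE).

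Of 6 marker genes listed for HEK293T, the filament genes NEFL (45.7 to 92.6 CPM) and VIM (305 to 834 CPM) were present in every library. The kidney gene PAX2 was low, at 0.205 to 1.33 CPM in HEK293T and 2.82 to 6.06 CPM in R1. CDH2 was at 18 to 40.5 CPM in HEK293T and 68.3 to 122 CPM in R1. INA was at 6.38 to 14 CPM in HEK293T and 13.2 to 29.9 CPM in R1. NEFM was at 19.8 to 72.5 CPM in HEK293T and 7.61 to 20.5 CPM in R1. Of 5 marker genes of the study's breast cancer line, KRT5, KRT16 and KRT6B were at 0 counts in all 12 libraries. KRT17 was at 0 to 0.125 CPM, and EGFR was at 2.57 to 5.68 CPM in HEK293T and 8.2 to 19.1 CPM in R1. Other foreign markers were low, with sums of 0 to 3.89 CPM for 3 leukocyte genes and 9.12 to 40.9 CPM for 3 fibroblast genes, nearly all of it COL1A1. EGFR, CDH2 and PAX2 were higher in every R1 library than in any HEK293T library, and COL1A1 was higher in most R1 libraries. The part of these genes in the results on the lines was not tested.

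Of the 43 members, 38 had a mean of at least 5 CPM and 40 passed the filter of 10 summed counts. The other 5 were at or near 0. PSMA8, the alpha subunit of the testis, summed to 5 counts over the 12 libraries, and PSMB11, the catalytic subunit of the thymus, to 2. PSMD5, an assembly chaperone of the regulatory particle, summed to 13 counts, with 0 to 2 in a library, so no fold change is given for it. PSMB8, a catalytic subunit of the immunoproteasome, was at 0 counts in every library, where a count of 0 allows up to 3 counts, or 0.16 to 0.237 CPM. PSMB9 reached 8 to 25 counts (0.464 to 1.65 CPM) under the entry used, 1 of 8 for that symbol. Summed over its 8 entries, PSMB9 was at 3.13 to 7.71 CPM (mean 5.24 CPM). PSMB3, PSMC4, PSME1 and PSME2 are each listed under 2 entries with identical counts, of which 1 was used, so the CPM given here is that of a single entry.

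Libraries stood apart in ways that touched the members. R1 -Met+Hcy replicate 3 departed from its group with the GC content of the transcript (Spearman rho of -0.74 across 11043 genes, which are not independent replicates, beside 0.6 and 0.73 in the other libraries of its group) and held 8.72% of its counts in mitochondrial genes, against 2.38 to 5.24% in the other 11. In it PSMB5 was at 70.5 CPM against 252 and 215 in its group, and PSMA4 was at 1398 against 727.0 and 519.6 CPM. Each rho is for a library against the mean of the other libraries of its group, so values within a group depend on each other. In the groups other than R1 -Met+Hcy, rho with GC content ran from -0.34 to 0.54. Departures from the group with transcript length reached a rho of -0.46 to 0.54 in other libraries, in every group but R1 -Met+Hcy beyond 0.4 in size. R1 +Met replicate 2 (rho of -0.45) was the highest of its group for 14 of the 15 20S members with at least 5 CPM, including 7 of 7 alpha genes. HEK293T -Met+Hcy replicate 1 was the lowest of its group for all 15. Among members with at least 5 CPM, the 20S transcripts were short (median 984 bases) beside those of the regulatory particle (1754 bases) and all genes tested that could be assigned a length (3217 bases). The heatmap of log2 differences by library shows these columns.

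**Figure D1:**
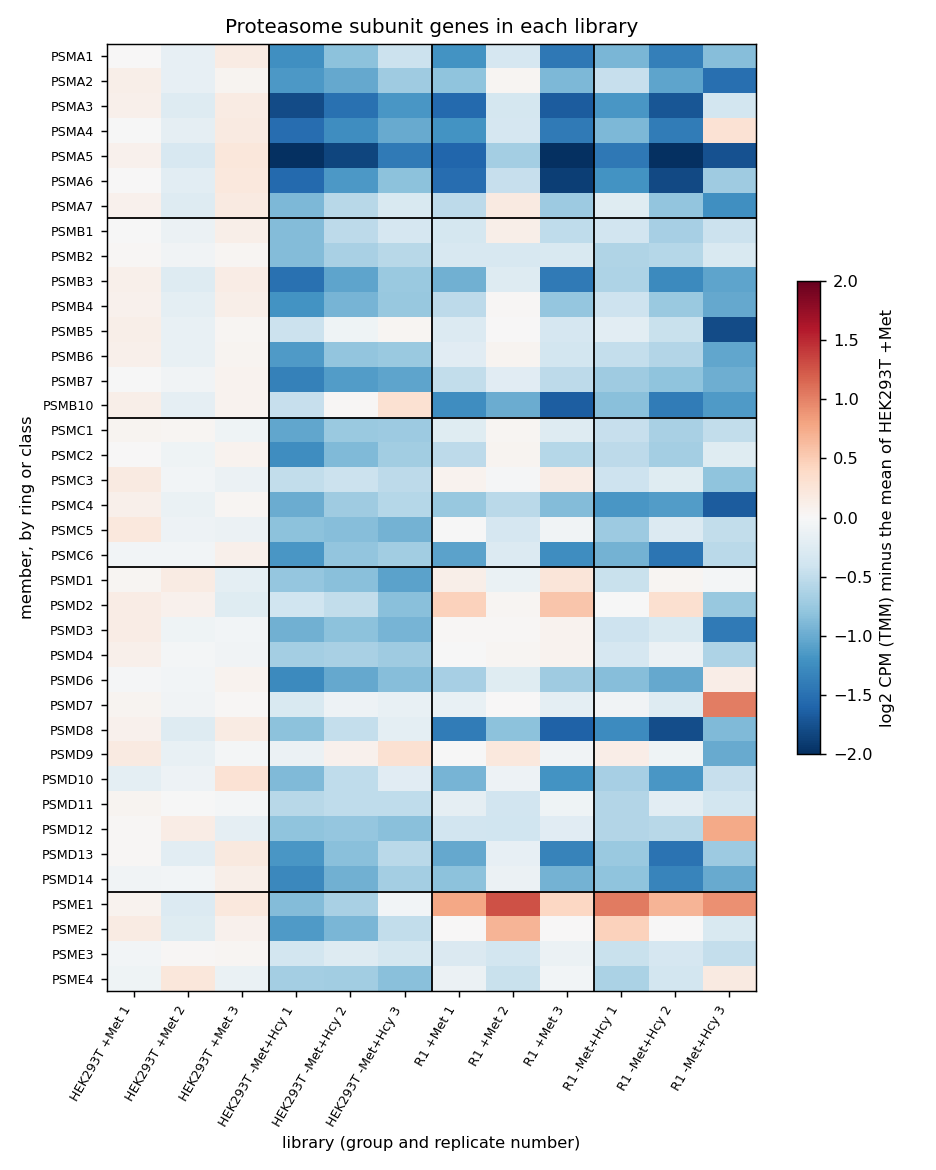
Log2 CPM with TMM scaling of the 38 members with at least 5 CPM (rows, divided into alpha, beta, ATPase, non-ATPase and PSME genes) in each of the 12 libraries (columns), as the difference from the mean of the 3 HEK293T +Met libraries, from blue (lower) to red (higher), with colours saturating at 2 in either direction. The HEK293T -Met+Hcy columns are mostly blue, R1 +Met replicate 2 is paler than the other R1 +Met columns in the alpha rows, and R1 -Met+Hcy replicate 3 departs in single rows such as PSMB5, PSMD7 and PSMD3.

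The first comparison asked how the medium changed these genes in HEK293T. Members fell and none rose: 15 of 40 passed an adjusted p of 0.05 downwards, against 2.78% of the 17162 genes tested and 3.85% of those with at least 5 CPM. The count for a rise was 0 also by DESeq2 and at an unadjusted p under 0.05, whereas 29 members, and 9.49% of all genes, were lower at that unadjusted p. The median log2 fold change of the 38 members with at least 5 CPM was -0.82, beside 0.03 for all genes tested, and 37 of the 38 estimates were below 0. With a log2 fold change beyond 1 as well, 4 members passed (PSMA5, PSMA3, PSMB7 and PSMD6), where 1.59% of the genes tested did. On the CPM values themselves, 27 of the 38 had every -Met+Hcy library below every +Met library, against 11.7% of the genes with at least 5 CPM.

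The spread between the R1 libraries enters the same model. Without R1 -Met+Hcy replicate 3, 28 of 40 members fell in HEK293T, where 12.5% of all genes did. Without 1 HEK293T library the count was 2, 4 or 5 (+Met replicates 1, 2 and 3) or 1, 1 or 3 (-Met+Hcy replicates 1, 2 and 3), and it was 8 without R1 +Met replicate 1. The share of all genes called in these fits is not given, so the members are not set beside other genes here. Scaling by column sums in place of TMM moved the median of all genes to 0.33 and that of the 38 members to -0.53, which is lower than all genes by 0.86 with either scaling, and called 5 members. When trends with GC and length were taken out of every library, 27 members fell, where 9.36% of all genes did, and the median of the 38 was -0.73. The medians of the 20S core and the regulatory particle, -0.96 and -0.81 with the trend left in, were then -0.75 and -0.74. In bulk RNA fewer cells of a kind and less RNA per cell cannot be told apart.

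**Figure D2:**
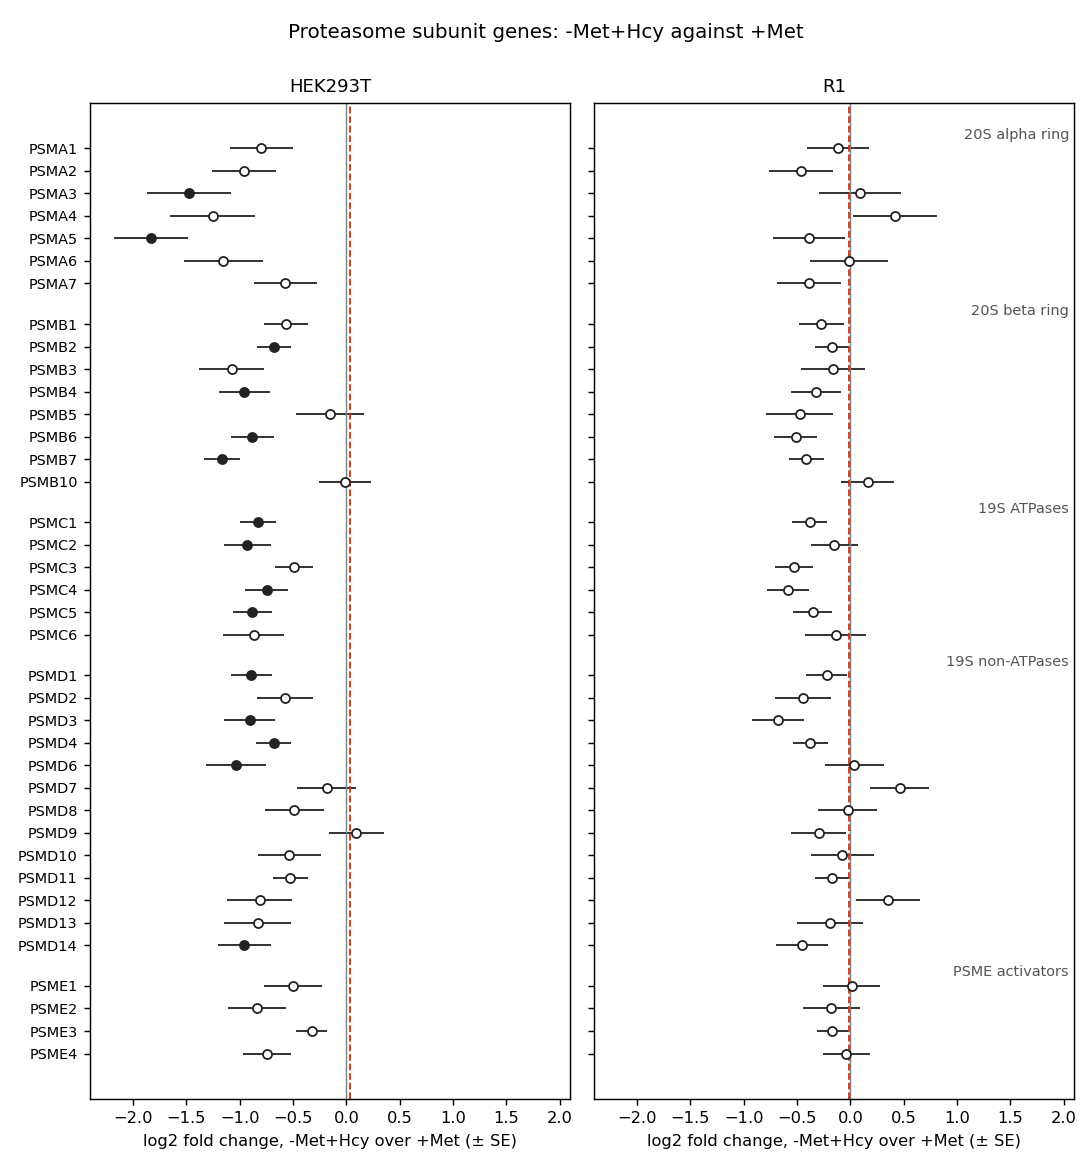
Log2 fold change in -Met+Hcy over +Met (x axis, bars show ± SE) for the 38 members with at least 5 CPM (y axis, by class) in HEK293T and in R1, from a single model of 12 libraries. Filled points passed an adjusted p of 0.05, and the dashed line is the median of all genes tested. The HEK293T points lie left of 0 except PSMD9, and 15 are filled, whereas most R1 points lie nearer 0 and none is filled.

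The alpha ring genes had the lowest median of the classes, -1.15 over 7 genes, or -0.82 with the GC and length trend removed, where the ATPase and beta genes were at -0.75 and -0.73. PSMA5 (chr1:109399042-109426448, minus strand, GRCh38) was at 579, 463 and 642 CPM in the +Met libraries of HEK293T and at 141, 191 and 244 CPM in -Met+Hcy, with a log2 fold change of -1.83 (SE 0.35, adjusted p = 0.0096). PSMA3 was at 403, 334 and 425 CPM in +Met and at 143, 168 and 201 CPM in -Met+Hcy, with -1.47 (SE 0.39, adjusted p = 0.0436). For both genes the groups did not overlap. The estimates of PSMA1, PSMA2, PSMA4, PSMA6 and PSMA7 ran from -1.25 (PSMA4) to -0.57 (PSMA7) with adjusted p from 0.0799 to 0.278, and the libraries overlapped for PSMA7 alone. Of 24 alternatives, 2 of them chosen after the data were seen, PSMA5 was past the threshold in 22 and PSMA3 in 15. Over the 15 members called, this number ran from 13 (PSMD3) and 14 (PSMD6 and PSMC4) to 24 (PSMB7).

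PSMA5 and PSMA3 had the largest falls among the members called, PSMD3 fell less than others called, and PSMB10 had the smallest change. The sequences before the starts of these few members are shown as examples and are no sample of those that fell. They are the 250 bases before the transcription start (RefSeq, GRCh38.p14), 5′ to 3′ on the gene's strand. The RefSeq start of PSMB10 lies inside the gene span given for it below (chr16:67934506-67936864), so its window overlaps that span. The motifs were searched on both strands over windows that also hold the 50 bases after the start: CCAAT, bound by NF-Y, TGACNNNGC, the antioxidant response core bound by NFE2L1 and NFE2L2, and TGATGNAA, bound by ATF4 with CEBP factors. Capitals mark CCAAT or TGACNNNGC, or the reverse complement.
PSMA5, chr1:109426449-109426698, minus strand: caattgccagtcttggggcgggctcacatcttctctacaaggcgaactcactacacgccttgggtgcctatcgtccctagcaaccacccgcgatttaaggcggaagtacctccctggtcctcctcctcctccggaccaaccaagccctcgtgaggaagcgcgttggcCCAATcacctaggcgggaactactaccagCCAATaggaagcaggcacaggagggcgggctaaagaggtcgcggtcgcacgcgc
PSMA3, chr14:58244593-58244842, plus strand: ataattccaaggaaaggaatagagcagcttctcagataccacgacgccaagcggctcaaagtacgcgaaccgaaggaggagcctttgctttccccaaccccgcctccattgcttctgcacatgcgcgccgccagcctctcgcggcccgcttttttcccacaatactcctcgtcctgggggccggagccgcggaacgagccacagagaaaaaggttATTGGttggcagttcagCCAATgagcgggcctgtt
PSMD3, chr17:39980557-39980806, plus strand: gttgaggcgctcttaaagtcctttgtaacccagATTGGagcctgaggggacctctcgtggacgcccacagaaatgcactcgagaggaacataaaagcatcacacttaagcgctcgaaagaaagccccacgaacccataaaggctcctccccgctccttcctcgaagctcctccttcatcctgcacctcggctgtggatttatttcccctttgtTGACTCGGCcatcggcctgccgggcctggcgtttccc
PSMB10, chr16:67936851-67937100, minus strand: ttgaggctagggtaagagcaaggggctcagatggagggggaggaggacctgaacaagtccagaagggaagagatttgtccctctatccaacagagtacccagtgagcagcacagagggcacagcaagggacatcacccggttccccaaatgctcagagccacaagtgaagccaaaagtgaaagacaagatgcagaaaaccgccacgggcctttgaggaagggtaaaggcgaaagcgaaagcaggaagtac
PSMA5 and PSMA3 each hold a pair of CCAAT matches within 83 bases of the start. PSMD3 holds TGACNNNGC 37 to 29 bases before the start and once more after it, and, reversed, CCAAT 217 bases before it. Among the members that fell and had a window, PSMD3 alone held TGACNNNGC before the start. PSMB10 holds none of the 3 motifs. A window was found for 38 of the 43 members. CCAAT was in 17 of these 38 (44.7%) and in 35.6% of 27305 promoters of all genes, TGACNNNGC in 11 (28.9%) and in 13.5%, and TGATGNAA in 0 and in 3.75%. Among members that fell in HEK293T, 8 of 12 with a window held CCAAT and 3 of 12 held TGACNNNGC, beside 7 and 6 of the 21 other members with at least 5 CPM. These are matches of letters, with no measure of binding.

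Among the beta ring genes the median was -0.78 over 8 genes, and the catalytic subunits differed in their estimates. PSMB7 (chr9:124353465-124415444, minus strand), which carries the trypsin-like site, was at 248, 253 and 265 CPM in +Met and at 128, 145 and 145 CPM in -Met+Hcy, with a log2 fold change of -1.17 (SE 0.17, adjusted p = 0.00279). PSMB6, which carries the caspase-like site, was at 178, 159 and 174 CPM and fell to 99.7, 121 and 119 CPM (-0.88, SE 0.20, adjusted p = 0.0235). PSMB5, which carries the chymotrypsin-like site and is the main target of proteasome inhibitors, was at 235, 207 and 224 CPM in +Met and at 211, 256 and 267 CPM in -Met+Hcy. The PSMB5 groups overlapped, and its log2 fold change was -0.15 (SE 0.32, adjusted p = 0.827), or 0.14 with column sums. Whether the 3 catalytic genes differed from each other was not tested.

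PSMB10 (chr16:67934506-67936864, minus strand), the interferon-induced counterpart of PSMB7, was at 42.5, 36.5 and 41.1 CPM in +Met and at 37.3, 49.6 and 57.9 CPM in -Met+Hcy. Its estimate was the nearest to 0 of the members with at least 5 CPM, at -0.02 (SE 0.24, adjusted p = 0.981), which was 0.27 with column sums. Its fellow immunoproteasome genes PSMB8 and PSMB9 were at the levels given above. PSMB4, a structural subunit of the inner ring, was at 548, 482 and 563 CPM and fell to 297, 340.1 and 369 CPM (-0.96, SE 0.24, adjusted p = 0.0331). PSMB2, also structural, fell by 0.68 on the log2 scale (SE 0.16, adjusted p = 0.0253). PSMB3 and PSMB1 had estimates of -1.08 and -0.56 that missed the threshold (adjusted p = 0.0527 and 0.129).

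**Figure D3:**
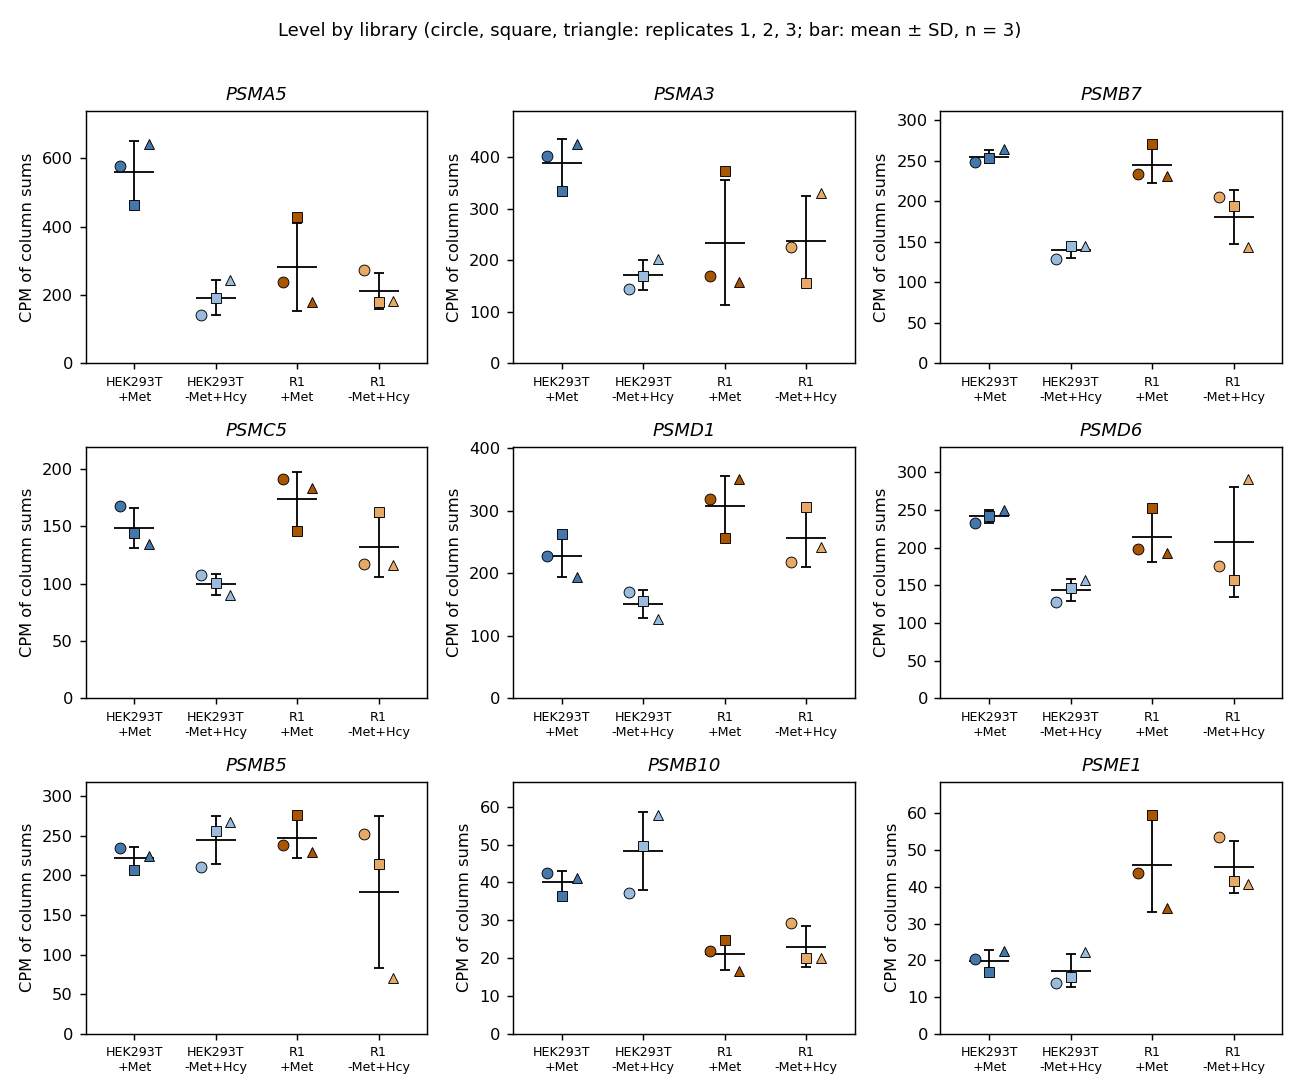
Level in CPM of column sums (y axis, from 0) of 9 members in each library of the 4 groups (x axis). Circles, squares and triangles are replicates 1, 2 and 3, and the bar is the mean ± SD of 3 libraries. PSMA5, PSMA3, PSMB7, PSMC5, PSMD1 and PSMD6 have no overlap between the HEK293T groups, PSMB5 and PSMB10 overlap, and PSME1 is higher in every R1 library than in any HEK293T library.

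The ATPases had a median of -0.85, and their estimates ran from -0.93 to -0.49. In HEK293T 4 of the 6 fell. PSMC2 was at 243, 245 and 257 CPM in +Met and at 135, 165 and 179 CPM in -Met+Hcy (-0.93, SE 0.22, adjusted p = 0.0254). PSMC5 was at 168, 144 and 134 CPM and at 108, 101 and 89.8 CPM (-0.88, SE 0.18, adjusted p = 0.0141). PSMC1 was at 258, 270.3 and 234 CPM and at 159, 187 and 179 CPM (-0.83, SE 0.17, adjusted p = 0.0126). In all 3 genes every -Met+Hcy library was below every +Met library. PSMC4 fell by 0.75 on the log2 scale (SE 0.20, adjusted p = 0.0414), also with no overlap. PSMC6 (-0.87) and PSMC3 (-0.49) missed the threshold, with adjusted p of 0.0928 and 0.125.

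The non-ATPase genes had a median of -0.68 over 13 genes, of which 5 fell. PSMD6, a lid subunit, was at 233, 242 and 251 CPM in +Met and at 128, 146 and 158 CPM in -Met+Hcy (-1.04, SE 0.28, adjusted p = 0.0454, or -0.75 with adjusted p = 0.0535 with column sums). PSMD14, the deubiquitinase of the lid that removes ubiquitin chains from substrates, was at 192, 206 and 219.7 CPM and at 108, 129 and 151 CPM (-0.96, SE 0.25, adjusted p = 0.0381). Neither gene had libraries that overlapped between the media. PSMD3, another lid subunit, was at 300.25, 270.1 and 261 CPM and at 182, 192 and 170.3 CPM (-0.91, SE 0.24, adjusted p = 0.0439). PSMD1, a large scaffold of the base, was at 227, 264 and 194 CPM and at 170.3, 156 and 126 CPM (-0.89, SE 0.19, adjusted p = 0.0179). Both again had no overlap, and PSMD4, a ubiquitin receptor, fell by 0.68 (SE 0.16, adjusted p = 0.0293).

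PSMD9, an assembly chaperone that is not kept in the finished particle, had an estimate of 0.09 (SE 0.26, adjusted p = 0.872), with 67.2, 57.1 and 58.1 CPM in +Met and 71.5, 79.1 and 87.6 CPM in -Met+Hcy. Its CPM was higher in every -Met+Hcy library, as was that of PSMD7, whose estimate under TMM was -0.19 (SE 0.28, adjusted p = 0.747). The remaining non-ATPase genes with at least 5 CPM, which are PSMD2, PSMD8 and PSMD10 to PSMD13, had estimates from -0.83 to -0.49 and adjusted p from 0.0721 to 0.323.

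Of the 4 PSME genes 0 passed in HEK293T with edgeR on all 12 libraries, and 3 were lower at an unadjusted p under 0.05. PSME2, PSME3 and PSME4 passed downwards with DESeq2 and with the GC and length trend removed (adjusted p = 0.0205, 0.0117 and 0.000546 in the latter), and PSME2 and PSME4 did without R1 -Met+Hcy replicate 3. Their median was -0.62. PSME4, which caps the barrel in the nucleus, was at 135, 177 and 130.4 CPM in +Met and at 117, 110.5 and 95.8 CPM in -Met+Hcy (-0.74, SE 0.22, adjusted p = 0.0649). PSME2, which builds the interferon-induced cap together with PSME1, was at 29.4, 23.6 and 28.3 CPM and at 15.7, 17.45 and 22.4 CPM (-0.84, SE 0.27, adjusted p = 0.0868). The groups did not overlap for these 2 genes. PSME1 was at 20.3, 16.9 and 22.5 CPM and at 13.9, 15.5 and 22.2 CPM (-0.50, SE 0.27, adjusted p = 0.303), and PSME3 was at 148, 166 and 159 CPM and at 156, 162 and 144 CPM (-0.33, SE 0.15, adjusted p = 0.219). Both overlapped.

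In R1, 0 of the 40 members passed with edgeR or DESeq2, where edgeR called 1 gene of all those tested (0.00583%). The share of all genes called by DESeq2 in R1 is not given. At an unadjusted p under 0.05, 8 members were lower, PSMD5 with its 0 to 2 counts among them, and 0 higher, where 2.11% of all genes were lower. The median of the 38 members with at least 5 CPM was -0.18, beside -0.02 for all genes, and by class it was -0.27 for the 20S core, -0.22 for the regulatory particle and -0.10 for the PSME genes. Leaving out 1 library moved the 20S median between -0.39 (without R1 +Met replicate 3) and -0.07 (without R1 +Met replicate 2), and the PSME median between -0.13 and -0.03 under the same omissions. In 8 of the 38, every -Met+Hcy library was below every +Met library, against 4.36% of genes with at least 5 CPM. PSMB6 was among them, at 189, 219.7 and 172 CPM in +Met and at 161, 150.3 and 90.7 CPM in -Met+Hcy (-0.51, SE 0.20, adjusted p = 0.622), as was PSMB7, at 233, 271 and 232 CPM and at 205, 194 and 143 CPM (-0.41, SE 0.16, adjusted p = 0.622). PSMA5 was at 239, 428 and 179 CPM and at 272, 179 and 184 CPM in R1 (-0.39, SE 0.34), and PSMA3 was at 170.0, 373 and 157 CPM and at 226, 155 and 329.9 CPM (0.09, SE 0.39). Both overlapped widely, with R1 +Met replicate 2 highest in +Met. Without R1 +Met replicate 2 the median of the 38 was -0.07, and without R1 -Met+Hcy replicate 3 it was -0.27.

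The difference between the responses of the lines was tested directly. With edgeR 0 of 40 members passed, where 0.0583% of genes did, and 11 members were higher and 1 lower at an unadjusted p under 0.05, the latter being PSMD5, whose counts are too low for a fold change. Of all genes, 4.62% were higher and 5.05% lower at that p. The median difference (R1 minus HEK293T) of the 38 members was 0.51, beside -0.06 for all genes. The estimates for PSMA5 and PSMB7 were 1.44 (SE 0.48, adjusted p = 0.363) and 0.75 (SE 0.23, adjusted p = 0.337). DESeq2 called PSMB7 alone. With the GC and length trend removed and R1 -Met+Hcy replicate 3 left out, a combination chosen after the data were seen, 11 members passed, all with a higher log2 fold change in R1, where 3.72% of genes did so. With column sums the median of the 38 was 0.19, beside -0.38 for all genes.

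The summed level of each class shows the same samples together. The 20S sum was 5298, 4775 and 5745 CPM in HEK293T +Met and 2720.4, 3278 and 3697 CPM in HEK293T -Met+Hcy, a mean of 5273 ± 486 (SD, n = 3) against 3232 ± 490. The regulatory particle sum was 3979, 3931 and 3896 CPM against 2797, 3033 and 3019 CPM, a mean of 3936 ± 41.4 against 2950 ± 133. The PSME sum was 332, 384 and 340.1 CPM against 303, 306 and 284 CPM, a mean of 352 ± 27.8 against 297 ± 11.5. For all 3 sums the HEK293T groups did not overlap. In R1 the 20S sum was 3665, 5575 and 3228 CPM in +Met and 4116, 3141 and 3843 CPM in -Met+Hcy, which overlapped, and the regulatory particle sum was 3992, 4389 and 3996 CPM against 3488, 3458 and 3259 CPM, which did not. The PSME sum in R1 was 419, 397 and 442 CPM against 377, 391 and 370.5 CPM, also with no overlap. All 43 members together held 0.909 to 0.998% of the counts in HEK293T +Met and 0.582 to 0.7% in HEK293T -Met+Hcy. The share in R1 was 0.767 to 1.04% with methionine and 0.699 to 0.798% with homocysteine. These sums are of column-sum CPM, on which the median of all genes in HEK293T lies at 0.33, and the most abundant members weigh most in them.

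The ratio of the 20S sum to the regulatory particle sum was 1.331, 1.215 and 1.475 in HEK293T +Met and 0.973, 1.081 and 1.224 in HEK293T -Met+Hcy, a log2 difference of -0.30 beside SDs of 0.14 and 0.17, with an overlap between 1.215 and 1.224. In R1 it was 0.918, 1.27 and 0.808 in +Met and 1.18, 0.908 and 1.179 in -Met+Hcy, a log2 difference of 0.14, smaller than the SDs of 0.34 and 0.22, or 0.05 from means of log2 CPM. The highest ratio in R1 +Met was that of replicate 2, without which the difference was 0.33. It was 0.27 without R1 -Met+Hcy replicate 2, and 0.08 and 0.08 without replicates 1 and 3 of that group. Without R1 +Met replicates 1 and 3 it was 0.09 and 0.0018.

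**Figure D4:**
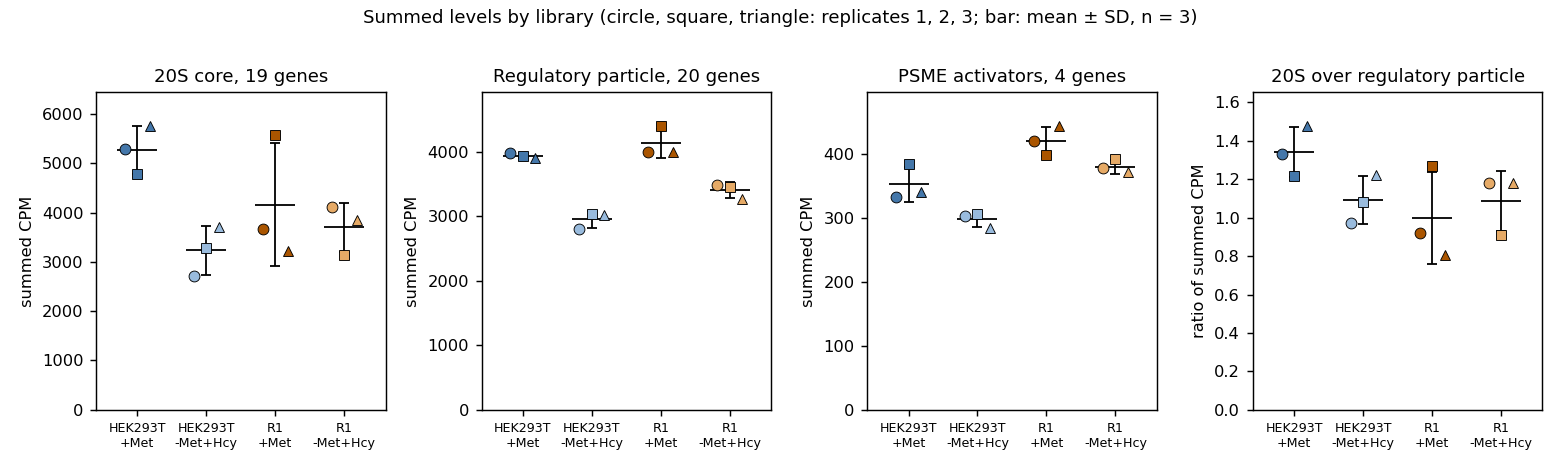
Summed CPM of the 20S core, the regulatory particle and the PSME genes, and the ratio of the 20S sum to the regulatory particle sum (y axes, from 0), in each library of the 4 groups (x axis). Circles, squares and triangles are replicates 1, 2 and 3, and bars are the mean ± SD (n = 3). The HEK293T groups separate for all 3 sums, and the 20S sum spreads from 3228 to 5575 in R1 +Met.

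Between the lines in +Met, 4 members were lower in R1, where 4.48% of genes were, and 0 were higher, where 5.69% were. DESeq2 called 8 lower and 1 higher, with 7.95% and 8.85% of all genes. At an unadjusted p under 0.05, 14 members were lower and 1, PSME1, was higher, with no share of all genes given. PSMA5 was at 239, 428 and 179 CPM in R1 against 579, 463 and 642 CPM in HEK293T (-1.34, SE 0.34, adjusted p = 0.028). PSMB10 was at 21.7, 24.9 and 16.5 CPM against 42.5, 36.5 and 41.1 CPM (-1.28, SE 0.25, adjusted p = 0.00765). PSMD8, a lid subunit, was at 157, 226 and 136 CPM against 334, 280.4 and 354 CPM (-1.25, SE 0.28, adjusted p = 0.0156). PSMC4, an ATPase, was at 70.2, 78.6 and 65.5 CPM against 95.9, 87.3 and 92.4 CPM (-0.72, SE 0.20, adjusted p = 0.0389). None of these 4 had libraries that overlapped between the lines. On the CPM values, every R1 library was lower in 4 of the 38 members with at least 5 CPM, and every R1 library was higher in 9. These CPM come from column sums, with which the median log2 fold change of all genes was 0.37. No share of all genes is given for these 2 counts, so the members are not set beside other genes here. The class medians were -0.91 for the alpha genes, -0.35 for the beta genes, -0.21 for the regulatory particle and 0.03 for the PSME genes, beside 0.02 for all genes. With the GC and length trend removed these medians were -0.35, 0.05, -0.08 and 0.28, beside 0.04 for all genes, so that the beta median turned. By that fit 5 members were lower, where 9.83% of genes were, and 3 were higher, where 11.4% were. With the trend left in, 12 were lower and 0 higher without R1 +Met replicate 2, where 6.52% of genes were lower. Without R1 -Met+Hcy replicate 3, 13 were lower and 1 higher, where 15.7% of genes were lower. Without HEK293T +Met replicate 1 or 3, or R1 +Met replicate 1 or 3, 1 member, PSMB10, was lower. No share of all genes is given for these last fits. With column sums the median of all genes was 0.37, and 2 members were lower and 1 was higher, where 15.2% of all genes passed in either direction.

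In -Met+Hcy, 3 of the 40 members were higher in R1, where 7.2% of genes were, and 1 was lower, where 6.76% were. These counts are near or below the shares of all genes, so members as a set did not stand out. PSME1 (chr14:24136163-24138967, plus strand) was at 53.4, 41.6 and 40.8 CPM in R1 against 13.9, 15.5 and 22.2 CPM in HEK293T (1.37, SE 0.27, adjusted p = 0.00655). PSME2, whose gene lies 4394 bases from PSME1 on chromosome 14, was at 48.8, 35.6 and 24.0 CPM against 15.7, 17.45 and 22.4 CPM (0.92, SE 0.27, adjusted p = 0.0427). PSMD1 was at 218, 306 and 243 CPM against 170.3, 156 and 126 CPM (0.75, SE 0.19, adjusted p = 0.0222). No library of these 3 genes overlapped between the lines. PSMB10 was lower, at 29.2, 19.97 and 19.98 CPM against 37.3, 49.6 and 57.9 CPM (-1.10, SE 0.25, adjusted p = 0.0122), as it was in +Met. With the GC and length trend removed its estimate was -0.30 (adjusted p = 0.534), and 17 members were higher in R1 and 0 lower by that fit, which called 16.8% of genes higher and 13.2% lower. With edgeR on the 6 libraries of this comparison alone, 0 members passed (smallest adjusted p = 0.0505), where 3.01% of all genes did. At an unadjusted p under 0.05, 3 members were higher and 2 lower by that fit, with no share of all genes given. PSME1 and PSME2 were also above every HEK293T library in R1 +Met, at 43.8, 59.6 and 34.3 CPM and at 34.9, 53.6 and 35.2 CPM, where they missed the threshold (adjusted p = 0.0648 and 0.597). With the GC and length trend removed, 2 of the 4 PSME genes passed as higher in R1 in +Met, where 11.4% of all genes did. PSME3 and PSME4 were at 151, 165 and 124 CPM and at 123, 149 and 182 CPM in R1 -Met+Hcy, and neither passed. With the trend left in, 6 members were higher and 2 lower without R1 -Met+Hcy replicate 3, where 15.7% of genes were higher. When HEK293T -Met+Hcy replicate 2 or 3 was left out instead, 2 members and 1 member passed, PSME1 among them in both. No share of all genes is given for the omissions of replicates 2 and 3 of HEK293T.

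**Figure D5:**
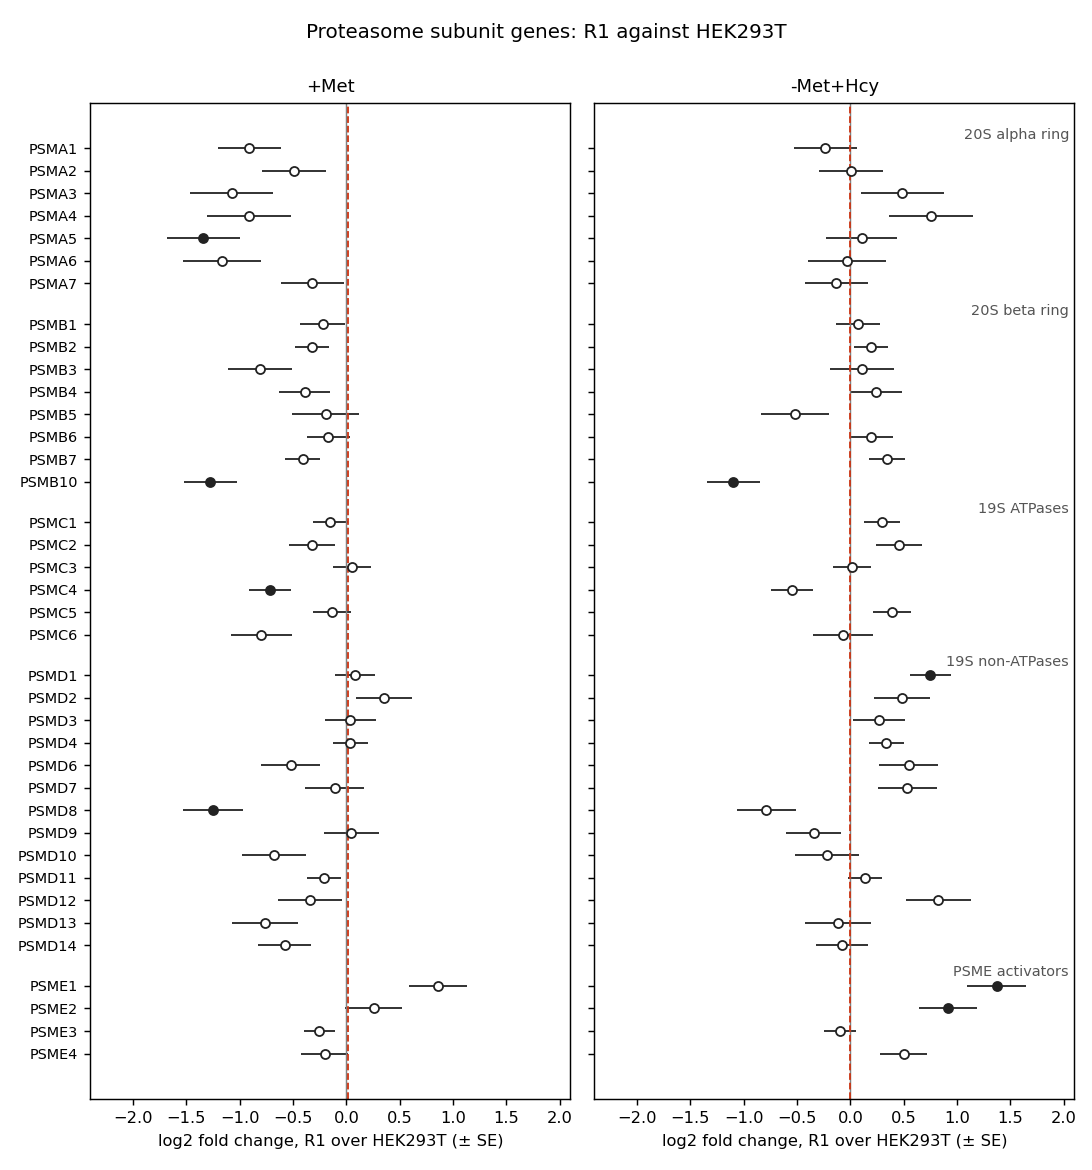
Log2 fold change in R1 over HEK293T (x axis, bars show ± SE) for the 38 members with at least 5 CPM (y axis, by class) in +Met and in -Met+Hcy. Filled points passed an adjusted p of 0.05, and the dashed line is the median of all genes tested. In +Met 4 filled points lie left of 0, and in -Met+Hcy PSMB10 is filled on the left and PSMD1, PSME1 and PSME2 on the right.

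Of 37 genes that build, assist or supply the proteasome, 3 fell and 1 rose in HEK293T, where 2.78% of all genes fell and 4.25% rose, and the median was -0.23. DESeq2 called 6 lower, where 5.52% of all genes were, and 2 higher. At an unadjusted p under 0.05, 11 were lower, where 9.49% of all genes were, and 3 higher. The shares of all genes for these rises are not given. POMP, the chaperone that matures the 20S core, was at 209.8, 179 and 219.6 CPM in +Met and at 88.4, 99.5 and 123 CPM in -Met+Hcy (-1.26, SE 0.28, adjusted p = 0.022). UBQLN4, a shuttle for ubiquitinated proteins, fell by 1.09 (SE 0.20, adjusted p = 0.00723). UBQLN2, a relative of UBQLN4, rose from 35.2, 33.8 and 28.3 CPM to 106, 93.7 and 78.6 CPM (1.22, SE 0.19, adjusted p = 0.00458). None of these 3 genes overlapped between the media.

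NFE2L1 was at 80.7, 86.8 and 73.6 CPM in +Met and at 200.4, 149.6 and 122 CPM in -Met+Hcy, with an estimate of 0.67 that missed the threshold (SE 0.26, adjusted p = 0.155). In R1 0 of the 37 passed with edgeR or DESeq2. At an unadjusted p under 0.05, 5 were lower, where 2.11% of all genes were, and 3 were higher, with no share given for the latter. Between the lines in +Met 5 were lower in R1 and 0 higher (4.48% and 5.69% of all genes). DESeq2 called 7 lower and 0 higher (7.95% and 8.85% of all genes). At an unadjusted p under 0.05, 8 were lower and 2 higher, with no share of all genes given. Among the 5 called by edgeR were PSMG1 and PSMG4, assembly chaperones of the 20S core, and RPS27A, which encodes ubiquitin fused to a ribosomal protein. PSMG4 was at 10.1, 10.7 and 9.32 CPM in R1 against 16.9, 16.1 and 16.7 CPM in HEK293T (-1.07, SE 0.21, adjusted p = 0.00873). In -Met+Hcy 4 were lower in R1, where 6.76% of all genes were, PSMG4 and UBQLN2 among them, and UBE3C, a ligase bound to the proteasome, was higher, where 7.2% of genes were (0.60, SE 0.14, adjusted p = 0.0165).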

How the data were processed

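RNA was sequenced from HEK293T and R1 cells in +Met or -Met+Hcy medium, 3 libraries per group. Per the labels, reads were quantified with kallisto 0.48.0 against GRCh38, and the authors deposited estimated counts per Ensembl gene as whole numbers, not scaled for library size. Members were taken by symbol, 1 entry per symbol (the highest summed count). The members and lists were chosen with earlier results of these data known. Other libraries of the study were not analysed here, and some genes of the lists are counted with their list but not reported here by name.

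Genes with a summed count of at least 10 were kept (17162), counts were scaled by TMM, and edgeR 4.0.16 (R 4.3.3) fitted a quasi-likelihood model with a mean per group and 8 residual degrees of freedom. The Benjamini-Hochberg adjustment ran over every gene tested. An adjusted p under 0.05 was called, with an absolute log2 fold change over 1 beside it. Members named with values in every library are the 12 with the largest change among those called in HEK293T, those called between the lines, the catalytic, immunoproteasome and PSME genes, and the 2 with the smallest change. Promoters came from RefSeq.

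Alternatives were DESeq2 1.42.0, edgeR on the libraries of a comparison only, RLE scaling, column sums, filterByExpr, no filter, robust estimation, the replicate number as a block, removal of each library's loess trend with GC content and transcript length, summed entries of a symbol, and each library left out. Procedures were tested on simulated data. The total count of 12664158 to 18771349 per library limits members under 3 counts, and precision is set by 3 libraries per group.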

Additional observations from a re-analysis of the deposited data

How the results depend on the processing

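Of the 254 values recomputed for the counts, medians and ratios, 206 stayed within 1.5 times (counts) or 1 SD (others) and 48 moved. No share of all genes is given for most fits with 1 library left out. In HEK293T the 15 calls became 25 with DESeq2, 31 with the libraries of the comparison only, 5 with column sums (5.52%, 15.5% and 1.24% of all genes fell), 27 with the GC and length trend removed, 4 with the fold threshold, and 1 to 28 with 1 library left out. Chosen after the data were seen, removal of the trend without R1 -Met+Hcy replicate 3 gave 31 and DESeq2 without it 30, where 18% and 15.1% of all genes fell. For the difference of responses the 0 calls became 1 with DESeq2, 11 and 4 with these added alternatives (1.43%, 8.52% and 6.01% of all genes), and stayed 0 with any library left out, as did the 0 of R1. Between the lines in +Met the 4 calls became 9, 10 and 8 with DESeq2, the libraries of the comparison only and the trend removed, 17 and 19 with the added alternatives (16.8%, 30%, 21.2%, 39.4% and 36.1% of all genes), and 1 to 14 with 1 library left out. In -Met+Hcy the 4 calls became 0 with the libraries of the comparison only, 17 with the trend removed, 19 and 9 with the added alternatives (3.01%, 30%, 39.1% and 33.5% of all genes), 2 with the fold threshold, and 1 to 8 with 1 library left out.

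With the replicate number as a block, 4 members were called in HEK293T, 2 between the lines in +Met and 2 in -Met+Hcy (1.25%, 6.54% and 9.67% of all genes). Same-numbered libraries deviated from their group means with correlations of -0.504 to 0.484, and not every library correlated best with its own number.

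The HEK293T medians moved with column sums to -0.66 (20S core), -0.52 (regulatory particle) and -0.33 (PSME), and with the trend removed that of the 20S core was -0.75 and that of the regulatory particle -0.74. With 1 library left out they ran from -1.05 to -0.85, -0.83 to -0.69 and -0.72 to -0.52, and in R1 the regulatory particle ran from -0.32 to -0.21. PSMB5 turned to 0.14 with column sums, 0.0062 with the trend removed and 0.0047 also without R1 -Met+Hcy replicate 3. PSMB10 turned to 0.27, 0.043 and 0.043 under these, and ran from -0.19 to 0.16 with 1 library left out (0.16 without HEK293T -Met+Hcy replicate 1). PSMD9 ran from -0.0038 (without HEK293T -Met+Hcy replicate 3) to 0.19. The cause was not tested for any of these. Counts of 3 or fewer limit PSMA8, PSMB8, PSMB11 and PSMD5.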
